A study of Mus musculus with 5 samples.

Results

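This account covers 10 genes of the unfolded protein response and the amino acid stress response in mouse colon, chosen by symbol: the transcription factors Atf4 and Atf6, the Atf4 targets Ddit3, Trib3 and Asns, and the endoplasmic reticulum (ER) chaperones and quality-control factors Hspa5, Hsp90b1, Manf, Sdf2l1 and Herpud1. Probes were matched to them through RefSeq accessions. Of the 10 genes, 8 had a named probe, out of 15078 genes or unnamed probes tested in all, while Trib3 and Atf6 had none and are not analysed here. The 8 genes had 10 probes, and all 10 were found above background by the scanner software on all 5 arrays.

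The tissue was colon from areas without tumours, taken at day 56 of a colitis-associated cancer model. All mice were of a C57Bl6 background, were 10 weeks old at the start, and received azoxymethane, a colon carcinogen, at 7.4 mg/kg, and then drank dextran sulfate sodium (DSS), an agent toxic to colonic epithelium, in 2 cycles. The 2 villin-TLR4 samples, 1 female and 1 male, carried TLR4, the lipopolysaccharide receptor, as a transgene named for villin, whose promoter is used to drive expression in intestinal epithelium, and had 1.5% DSS. The 3 WT littermate samples were all female and had 3% DSS. Genotype and DSS concentration therefore cannot be told apart. The comparison addresses the state of tumour-free colon in mice with the transgene and 1.5% DSS relative to littermates without the transgene and with 3% DSS.

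Cells respond to unfolded proteins in the ER through the sensors PERK (Eif2ak3), IRE1 (Ern1 and, in mucosal epithelium, Ern2) and ATF6. ATF6 and the IRE1 product XBP1 switch on chaperones and degradation factors. PERK, and GCN2 (Eif2ak4) when amino acids run short, phosphorylate the initiation factor eIF2 alpha, which slows most translation but favours that of Atf4, a factor that switches on amino acid synthesis, transport and tRNA charging. Because much of Atf4's control lies in translation and that of Atf6 in cleavage, mRNA levels report only part of either arm. In the gut, this system is best known from goblet, Paneth and plasma cells, which secrete large amounts of protein.

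Values are normalised log2 intensities, and each difference is the villin-TLR4 mean minus that of the WT littermates, with its standard error (SE). Levels of different probes cannot be compared with each other. Precision is limited by there being 5 arrays. WT littermate replicate 1 differed from the rest: 13352 of its 35078 gene probes were found, against 16380 to 19509 on the others, and its correlation with the other arrays across genes was 0.885 to 0.895. For some genes whose sign turned or whose difference moved on leaving it out, the value without it is given. Other differences may have moved as well. All 11 colon epithelium markers, among them Vil1 and Cdx2, were found on all 5 arrays. In bulk tissue, fewer cells of a type and less RNA per cell cannot be told apart.

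No member passed the threshold. With limma, 0 of the 8 members had an adjusted p under 0.05, and over the whole table the share was 0%, with 730 genes at an unadjusted p under 0.05, or 4.84%. Atf4 had the lower mean in villin-TLR4 on both of its probes and Herpud1, a membrane protein of ER-associated degradation, had the higher mean. These were also the only 2 members with an unadjusted p under 0.05. The groups did not overlap for 1 member with higher values in villin-TLR4 (Herpud1), where 12.6% of all genes measured on all arrays showed this, and for 2 members with lower values (Atf4 and Manf), where 12.9% did. Hspa5, Hsp90b1 and Sdf2l1, which are chaperones or chaperone partners, and Ddit3 and Asns overlapped between the genotypes.

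**Figure D1:**
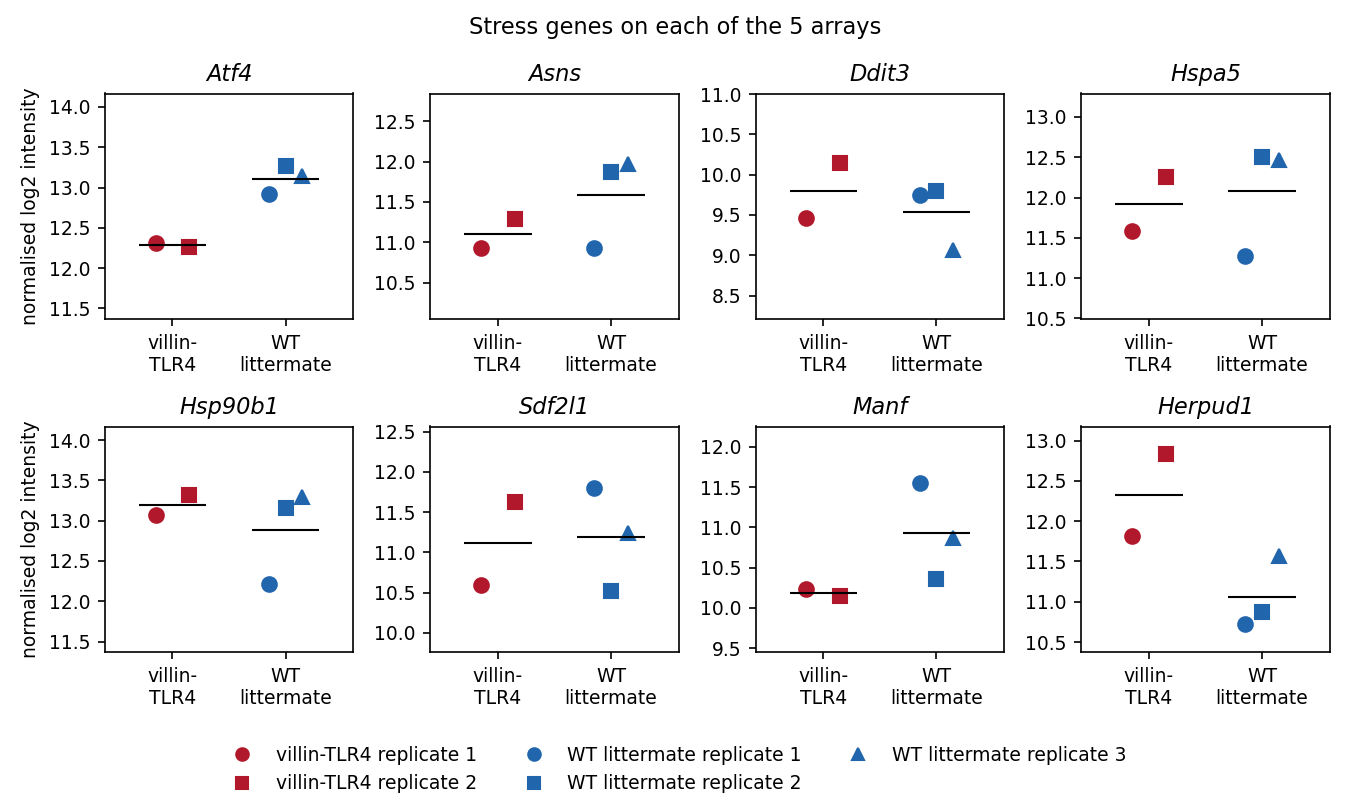
Normalised log2 intensity of the 8 measured stress genes, with 1 point per array, villin-TLR4 in red and WT littermate in blue, and lines at the group means; every panel spans the same range of log2 units. The villin-TLR4 points of Atf4 lie below, and those of Herpud1 above, all 3 WT littermate points, while Hspa5, Hsp90b1 and Sdf2l1 overlap.

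Atf4 encodes the transcription factor at the centre of the amino acid and integrated stress responses. Its brighter probe (mMC018611; gene at chr15:80255184-80257545 of GRCm38.p6) read 12.31 and 12.26 on the villin-TLR4 arrays, against 12.92, 13.27 and 13.14 on the WT littermate arrays. Both villin-TLR4 values lay below every WT littermate value. The means were 12.28 ± 0.03 (SD, n = 2) in villin-TLR4 and 13.11 ± 0.18 (SD, n = 3) in WT littermates. The log2 fold change was -0.83 ± 0.23 (SE), a level 1.77-fold lower in villin-TLR4, with a limma adjusted p of 0.870. Its 95% confidence interval ran from -1.39 to -0.26. Such intervals, here and below, hold for 1 gene alone and are not adjusted for the number of genes tested. The second probe (mMA034606) read 11.17 and 11.44 in villin-TLR4 and 11.60, 11.77 and 11.70 in WT littermates, again without overlap, and gave a smaller difference of -0.38. With each array left out in turn the brighter probe gave -0.87 to -0.75; where this leaves 1 villin-TLR4 array, here and below, that array is assumed to vary like the WT littermate arrays. Within scan day 3, the only day with both genotypes (villin-TLR4 replicate 2, the male, and WT littermate replicate 2), it was -1.01. Scan day 3 also differs in sex, so sex and genotype cannot be told apart there.

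Asns encodes asparagine synthetase, an amino acid-responsive enzyme that Atf4 activates. It read 10.92 and 11.28 in villin-TLR4 and 10.93, 11.87 and 11.97 in WT littermates. WT littermate replicate 1 was as low as the lower villin-TLR4 array, and the other WT littermate arrays were above both. The difference was -0.48 ± 0.38 (SE) with an adjusted p of 0.870 and a 95% confidence interval of -1.39 to 0.42. Without WT littermate replicate 1 it was -0.77, with an adjusted p of 0.351. The dimmer Asns probe (mMA033102) read 7.59 and 8.33 in villin-TLR4 and 8.40, 8.62 and 8.86 in WT littermates, without overlap, and gave -0.67. Its signal was as low as 2.77 background SDs on 1 array.

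Ddit3 encodes CHOP, a pro-apoptotic transcription factor that Atf4 induces. It read 9.46 and 10.14 in villin-TLR4 and 9.74, 9.79 and 9.07 in WT littermates, so the villin-TLR4 arrays held the highest value and 1 of the lower ones. The difference was 0.26 ± 0.35 (SE) and its 95% confidence interval, -0.57 to 1.10, spans both directions. It turned to -0.08 without villin-TLR4 replicate 2. Asns and Ddit3 thus had differences of opposite sign, and their median was -0.11, against 0.01 over all genes tested.

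Of the 8 listed genes with a promoter in the RefSeq table (GRCm38.p6), 4 held at least 1 of 3 motifs of these pathways in the 250 bases before the annotated start. The motifs were searched on both strands, and no matches to different motifs overlapped. They were the ER stress response element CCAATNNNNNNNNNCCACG, to which ATF6 binds with NF-Y and which 0.113% of 32851 promoters held, its second form ATTGGNCCACG, held by 0.0304%, and the core TGATGNAA of the element bound by C/EBP and ATF factors such as Atf4, held by 3.45%. The following stretches are shown because they hold every match found among the listed genes, which were grouped by symbol and not by these matches. They are written 5′ to 3′ on the gene's strand with the matches in capitals.
Hspa5: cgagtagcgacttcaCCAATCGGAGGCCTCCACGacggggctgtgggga
Hsp90b1: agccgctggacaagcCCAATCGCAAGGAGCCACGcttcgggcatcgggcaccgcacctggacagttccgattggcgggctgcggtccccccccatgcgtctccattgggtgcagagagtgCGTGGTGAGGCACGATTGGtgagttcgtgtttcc
Herpud1: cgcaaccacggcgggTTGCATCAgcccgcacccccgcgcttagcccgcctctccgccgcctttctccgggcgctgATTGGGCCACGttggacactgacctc
Asns: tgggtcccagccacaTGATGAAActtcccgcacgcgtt

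The stretches lie at chr2:34772010-34772058 on the plus strand for Hspa5, chr10:86705518-86705671 on the minus strand for Hsp90b1, chr8:94386302-94386402 on the plus strand for Herpud1 and chr6:7693210-7693247 on the minus strand for Asns. Hspa5 held 1 ER stress response element, 65 to 47 bases before the start. Hsp90b1 held 2, the nearer of them in reverse orientation. Herpud1 held a match of each arm, the second-form element and, in reverse orientation, the core TTGCATCA. In this window Atf4, Ddit3, Trib3 and Sdf2l1 held none of these letters. Of the 2 measured genes with a core TGATGNAA, Herpud1 had a higher and Asns a lower mean in villin-TLR4. A match is a description of the sequence and no measure of binding.

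Hspa5 encodes BiP, the main Hsp70 chaperone of the ER and a textbook marker of ER stress. It read 11.59 and 12.26 in villin-TLR4 and 11.27, 12.51 and 12.46 in WT littermates. The lowest value belonged to WT littermate replicate 1 and the 2 highest to the other WT littermate arrays, so the villin-TLR4 arrays fell inside the WT littermate range. The difference was -0.16 ± 0.45 (SE), with an adjusted p of 0.948 and a 95% confidence interval of -1.25 to 0.93. The sign depended on the arrays included: without WT littermate replicate 1 it was -0.53, and without villin-TLR4 replicate 1 it was 0.17.

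Hsp90b1 encodes GRP94, the Hsp90 chaperone of the ER, which folds Toll-like receptors among other clients. It read 13.07 and 13.32 in villin-TLR4 and 12.22, 13.16 and 13.29 in WT littermates. As for Hspa5, the lowest array was WT littermate replicate 1, and the other 4 lay close together. The difference was 0.31 ± 0.37 (SE), with an adjusted p of 0.886. It was -0.02 without WT littermate replicate 1.

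Sdf2l1 encodes an ER protein that works with BiP and its cochaperones. It read 10.60 and 11.63 in villin-TLR4 and 11.80, 10.52 and 11.25 in WT littermates. The spread within each group, a range of 1.03 in villin-TLR4 and 1.28 in WT littermates, was wider than the difference of -0.08 ± 0.47 (SE). Within scan day 3 the difference was 1.11, and without WT littermate replicate 1 it was 0.22.

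Manf encodes a secreted ER stress-induced protein that binds BiP. It read 10.23 and 10.15 in villin-TLR4 and 11.55, 10.36 and 10.86 in WT littermates. The groups did not overlap, but WT littermate replicate 2 lay close to the villin-TLR4 arrays, and WT littermate replicate 1 was the highest. The difference was -0.73 ± 0.38 (SE), with an adjusted p of 0.870 and a 95% confidence interval of -1.64 to 0.17. It was -0.40 without WT littermate replicate 1 and -0.21 within scan day 3.

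Herpud1 had the largest absolute difference of the 8 members. It read 11.82 and 12.83 in villin-TLR4 and 10.72, 10.87 and 11.57 in WT littermates. Both villin-TLR4 arrays were above all WT littermate arrays, with villin-TLR4 replicate 1 closest to WT littermate replicate 3. The means were 12.32 ± 0.71 (SD, n = 2) in villin-TLR4 and 11.06 ± 0.45 (SD, n = 3) in WT littermates. The log2 fold change was 1.27 ± 0.41 (SE), or 2.41-fold higher in villin-TLR4, with an adjusted p of 0.870 and a 95% confidence interval of 0.29 to 2.25. With each array left out it ran from 0.76 without villin-TLR4 replicate 2 to 1.81 without villin-TLR4 replicate 1. Within scan day 3 it was 1.95. Because the groups do not overlap, leaving out arrays says little about the sign. The second-form ER stress element and the core in reverse orientation shown above lie in its promoter.

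**Figure D2:**
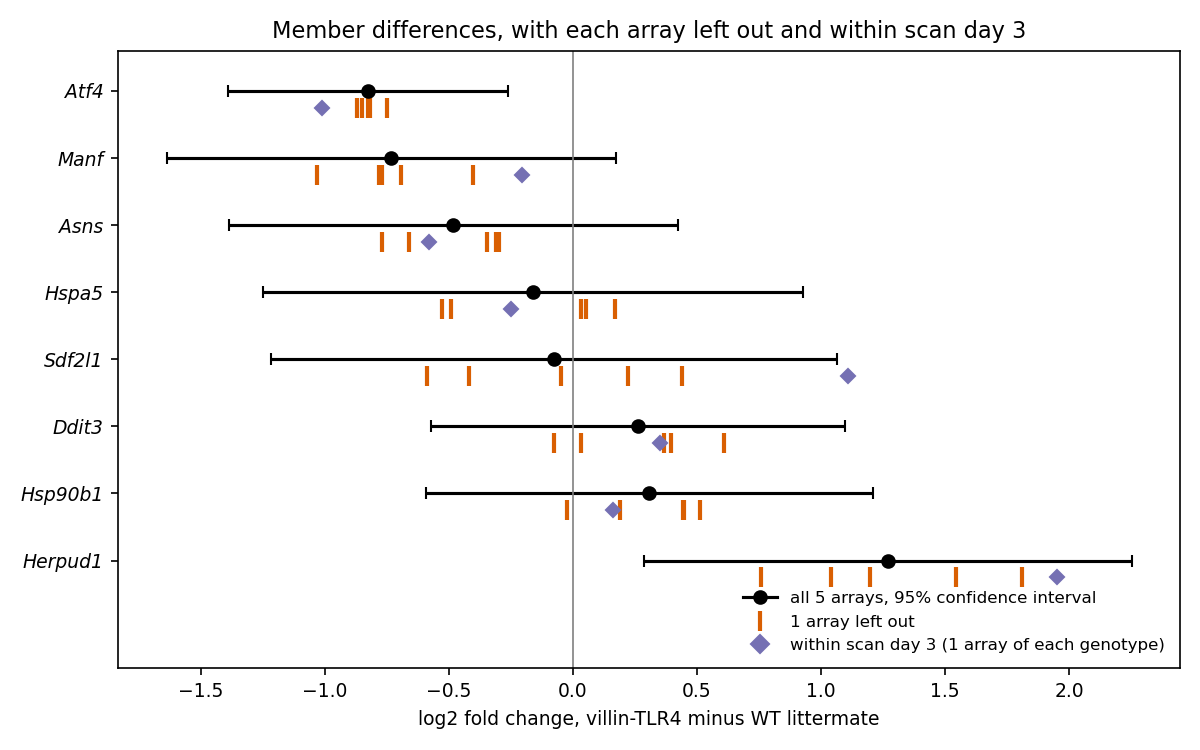
Log2 fold change, villin-TLR4 minus WT littermate, for each measured member. Black points with 95% confidence intervals, not adjusted for the number of genes tested, use all 5 arrays. Orange ticks leave out 1 array each and purple diamonds use 1 array of each genotype from scan day 3. Atf4, Manf and Asns stay below 0 and Herpud1 above 0 in every such fit, while Hspa5, Sdf2l1, Ddit3 and Hsp90b1 cross 0 when 1 array is left out. The groups of Atf4, Manf and Herpud1 do not overlap, so leaving out arrays says little about their sign.

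The 5 ER chaperones and quality-control genes shared no direction. Their median difference was -0.08, with 2 of 5 above 0 and 3 below, against 0.01 over all genes tested. On WT littermate replicate 1 they split: Hspa5 and Hsp90b1 had their lowest values there, and Manf and Sdf2l1 their highest. The array-to-array SD of Herpud1, 0.84, was larger than that of 93.3% of the 10098 genes found on all arrays, and that of Ddit3, 0.40, exceeded 59% of them. By root mean square distance between centred values over the 5 arrays, the genes most like the mean profile of the 5 were Scarb2 (0.05 log2 units), Kif23 and Cog6, out of 7371 candidates. Those most like the mean of Asns and Ddit3 were P2rx5 (0.04), Il17ra and Eif6, out of 7399. Each mean averages genes that differed in direction, so these genes resemble the mean and need not resemble any single member.

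Other genes of the Atf4 and amino acid response were spread on both sides. Of 34 listed genes, 27 were measured, of which 16 lay above 0 and 11 below, with a median of 0.13 and 0 called. Without WT littermate replicate 1 the median was -0.09. The groups did not overlap for 2 of the 24 measured on all arrays with higher values in villin-TLR4, where 12.6% of all genes did so, and for 5 with lower values, where 12.9% did. The stress-induced factor Atf3 had the largest difference of the list, 2.24 ± 0.32 (SE), with an adjusted p of 0.774. The mTORC1 inhibitor Ddit4, the other gene with higher values and no overlap, gave 0.77 ± 0.26.

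Among the genes with lower means and no overlap, Psat1, an enzyme of serine synthesis, read 7.90 and 8.41 in villin-TLR4 and 9.26, 9.56 and 9.04 in WT littermates. Its difference was -1.13 ± 0.29 (SE). Mthfd2, a mitochondrial enzyme of one-carbon metabolism, read 7.93 and 8.60 in villin-TLR4 and 9.07, 9.60 and 9.67 in WT littermates. Its difference was -1.18 ± 0.32. As for Atf4, all WT littermate arrays were above both villin-TLR4 arrays. Eif4ebp1, a repressor of cap-dependent translation, gave -1.07 ± 0.36, or -0.72 without WT littermate replicate 1. Slc7a1, an amino acid transporter, was not found in either villin-TLR4 sample and is given no fold. None of these passed, with adjusted p of 0.870 for Psat1. Phgdh, Aldh1l2 and Shmt2, other enzymes of serine and folate metabolism that are given after their values were seen, had differences of -0.46, -0.27 and 0.13. Chac1, a glutathione-degrading Atf4 target, overlapped between the groups with 0.32 ± 0.63, or 0.055 without WT littermate replicate 1. Ppp1r15a, which directs the phosphatase that reverses eIF2 alpha phosphorylation, overlapped as well, with 0.21 ± 0.32. Atf5, a related factor, had no value on WT littermate replicate 1 and gave -0.33 ± 0.29 from the other arrays.

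Aminoacyl-tRNA synthetases, many of them Atf4 targets, mostly had lower means in villin-TLR4: 13 of 16 measured genes lay below 0 with a median of -0.27, and 0 were called. Without WT littermate replicate 1 this was 15 of 16 with a median of -0.45, and without WT littermate replicate 3 it was 12 of 16 with a median of -0.10. The list's lowest array was nevertheless WT littermate replicate 1, with a median of -0.55 after centring each gene, below the -0.14 and -0.09 of the villin-TLR4 arrays, while WT littermate replicates 2 and 3 stood at 0.37 and 0.29. Aars, the alanyl-tRNA synthetase, read 9.18 and 9.06 in villin-TLR4 and 9.62, 10.05 and 10.12 in WT littermates, without overlap, and differed by -0.82 ± 0.26 (SE; limma adjusted p 0.870). Dars, the aspartyl-tRNA synthetase, had a higher mean, by 0.60 ± 0.28. Of the 13 synthetases measured on all arrays, 1 had higher and 2 had lower values without overlap, where 12.6% and 12.9% of all genes did so.

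ER folding, export and degradation genes lay on both sides of 0. Of 47 listed, 41 were measured, with 22 above 0 and 19 below, a median of 0.02 and 0 called. Without WT littermate replicate 3 the median was 0.18, with 15 of 41 below 0. The groups did not overlap for 4 of the 40 measured on all arrays with higher values in villin-TLR4, where 12.6% of all genes did so. For 5 they did not overlap with lower values, where 12.9% did. The 4 were Ero1a, the oxidase that drives disulfide formation, at 1.10 ± 0.31 (SE), and the disulfide isomerase Pdia5 at 0.89 ± 0.35. With them were Derl3, a channel component of ER-associated degradation, at 0.88 ± 0.39, and Sel1l, an adaptor of the Hrd1 ubiquitin ligase, at 0.59 ± 0.41. The difference of Sel1l was 0.21 without WT littermate replicate 1. On the other side, Sec61g, a subunit of the translocation channel, gave -1.02 ± 0.33, or -0.77 without that array. Srp19, of the signal recognition particle, gave -0.79 ± 0.49, which was -0.32 without that array. Sec23b gave -0.42 ± 0.28. Hyou1, found on 1 of 2 villin-TLR4 arrays, gave -0.25 ± 0.22. Derl3, not found by the scanner software on 1 WT littermate array, read 7.63 and 8.48 in villin-TLR4 and 7.40, 6.64 and 7.48 in WT littermates.

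The sensors showed no common direction. Of 22 listed sensors and eIF2 alpha regulators, 20 were measured, 10 above 0 and 10 below, with 0 called. The groups did not overlap for 3 of the 20 with higher values in villin-TLR4, where 12.6% of all genes did so. They did not overlap for 5 with lower values, where 12.9% did. Eif2ak3, which encodes PERK, read 10.40 and 10.91 in villin-TLR4 and 8.37, 10.39 and 10.69 in WT littermates. Its difference was 0.84 ± 0.69 (SE), or 0.11 without WT littermate replicate 1, the lowest array. Ern2, the IRE1 form of mucosal epithelium, gave 0.73 ± 0.64, or 0.06 without that array. Ern1 gave 0.083 ± 0.28, or -0.059 without that array, and Eif2ak4, the amino acid sensor GCN2, 0.28 ± 0.22. Eif2ak1, the heme-regulated eIF2 alpha kinase, read 9.88 and 9.96 in villin-TLR4 and 9.39, 9.42 and 9.32 in WT littermates, a difference of 0.54 ± 0.22 that did not pass. Creb3l3, an ATF6-like membrane-bound factor, gave -0.87 ± 0.29. Also lower without overlap were Eif2s1, the eIF2 alpha gene, at -0.70 ± 0.29 and Eif2b5 at -0.39 ± 0.24. Eif2s1 was found on 1 of 2 villin-TLR4 arrays. Xbp1 had no value here.

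**Figure D3:**
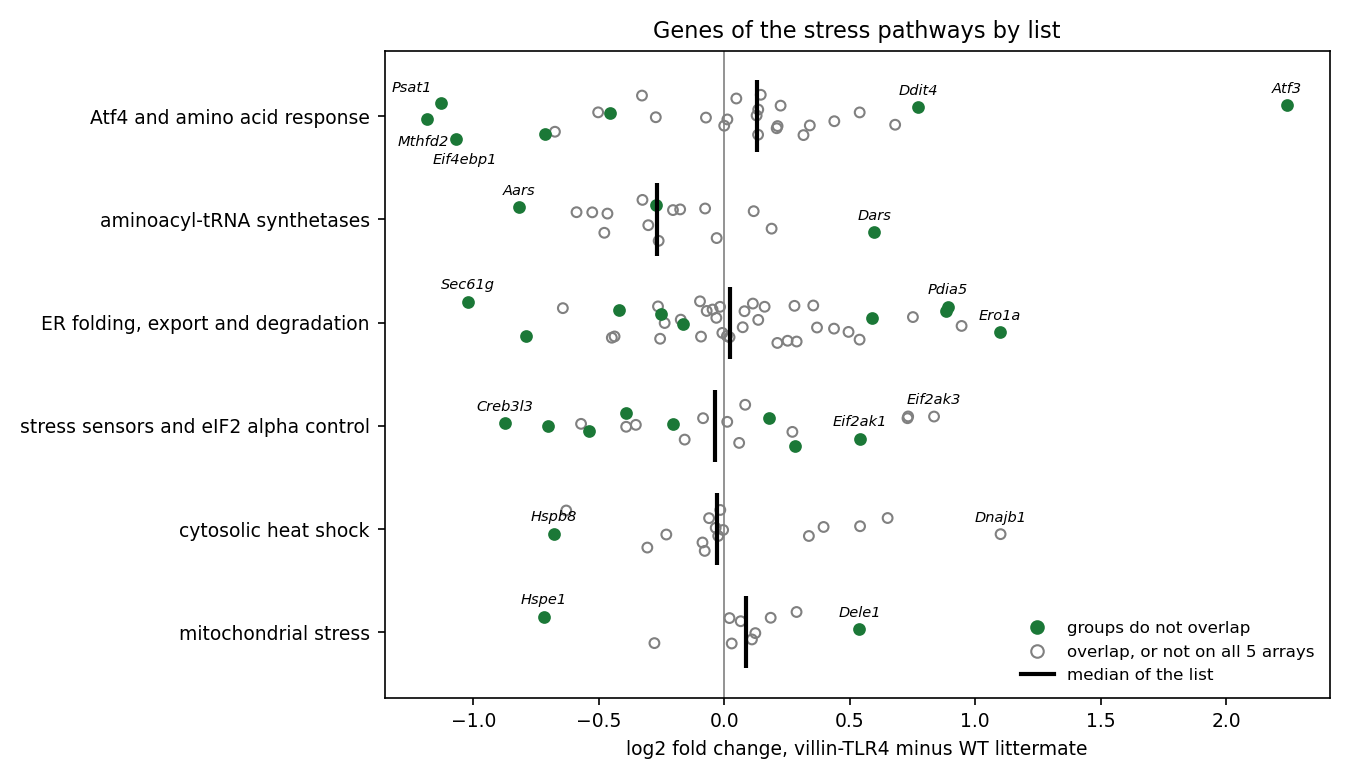
Log2 fold change, villin-TLR4 minus WT littermate, of every measured gene of 6 stress pathway lists; filled points are genes whose groups do not overlap, and black bars are list medians. Atf3 stands at 2.24, Psat1, Mthfd2, Eif4ebp1 and Sec61g lie below -1, and list medians stay between -0.27 and 0.13.

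Chaperones outside the ER gave a comparison. The cytosolic heat shock list had a median of -0.03 with 5 of 16 above 0, and the mitochondrial stress list 0.09 with 8 of 10 above 0, with 0 called in either. Both were lowest on WT littermate replicate 1, with centred medians of -0.71 and -0.50, the array where Hspa5 and Hsp90b1 were lowest too. Hspd1, the mitochondrial Hsp60 chaperone and a gene picked after its values were seen, read 12.71 and 13.10 in villin-TLR4 and 11.20, 13.39 and 13.25 in WT littermates. Without that array the medians were -0.35 and -0.18.

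Markers of other cell types also differed between the arrays. On WT littermate replicate 1 the centred median of the 7 neutrophil markers with a value there was 2.74, against -0.24 and -0.23 in villin-TLR4 and -0.73 and -0.79 on the other WT littermate arrays, and that of 11 colon epithelium markers was -0.91, against 0.07 and 0.11 in villin-TLR4 and 0.08 and 0.48 on the other WT littermate arrays. The 4 measured Paneth cell markers had a centred median of 2.15 on that array, against -0.44 and -1.23 in villin-TLR4 and -0.66 and 0.80 on the other WT littermate arrays. All 4 had lower means in villin-TLR4, with a median difference of -1.39, or -0.93 with 3 of 4 below 0 without that array, and 0 were called. The part of these cells in the low Hspa5 and Hsp90b1 and the high Manf and Sdf2l1 of that array was not tested. Exocrine pancreas markers, from a tissue rich in ER chaperones, had centred medians of -1.72 and -1.46 in villin-TLR4 and -0.78, 0.58 and 3.82 in WT littermates. All 12 measured had lower means in villin-TLR4, with a median difference of -2.62 and 0 called. The groups did not overlap for 9 of the 12, all with lower values, against 12.9% of all genes. Of the 12, 5 were found on all 5 arrays. Their summed linear level over 12 genes was 29930 and 18271 in villin-TLR4 and 29055, 63714 and 131091 in WT littermates. Cela1 and Sycn, at 12.74 or above on every array, weigh heavily in these sums, which therefore say little of the dimmer markers. Ctrb1, found on 1 of 2 villin-TLR4 arrays, read 7.19 and 7.08 in villin-TLR4 and 8.93, 10.85 and 14.12 in WT littermates. The pancreatic elastase Cela2a was found in 0 of 2 villin-TLR4 samples and 3 of 3 WT littermate samples. Asns, Hspa5 and Atf4 had their 2 highest values on the same WT littermate arrays, 2 and 3, and the part of these markers in that was not tested. Without WT littermate replicate 3, Atf4 differed by -0.82, Asns by -0.30 and Hspa5 by 0.031.

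Plasma cell markers were mixed, with 6 of 9 measured having higher means in villin-TLR4, the direction of Herpud1, and a list median of 0.51. The groups did not overlap for 4 of the 9, all with higher values in villin-TLR4, against 12.6% of all genes. Of these 4, Prdm1 and Irf4 were each found on 2 of 3 WT littermate arrays. On WT littermate replicate 1, 5 of the 9 markers were found. Cd79a, Sdc1 and Tnfrsf13b had lower means, with differences of -0.41, -0.20 and -0.022. Mzb1, a BiP-associated ER protein of plasma cells with the largest difference of the list, read 10.63 and 11.53 in villin-TLR4 and 10.11, 8.76 and 9.77 in WT littermates. Its difference, 1.53 ± 0.48 (SE), did not pass. Villin-TLR4 replicate 2 was the highest array for Herpud1 and Derl3, and also for Ddit3 and Hsp90b1. Among the plasma cell markers, Mzb1, Prdm1, Irf4, Pou2af1 and Tnfrsf17 were highest there. Jchain was highest on villin-TLR4 replicate 1, and Cd79a, Sdc1 and Tnfrsf13b on WT littermate arrays. The summed linear level of the 9 markers was 12371 and 13972 in villin-TLR4 and 10588, 5807 and 10121 in WT littermates. Jchain, the brightest of them on every array, weighs most in these sums. The 8 goblet cell markers had a median of 0.15, which was -0.32 without WT littermate replicate 1 and 0.35 without WT littermate replicate 3, their highest array. The part of these cells in the difference of Herpud1 was not tested.

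**Figure D4:**
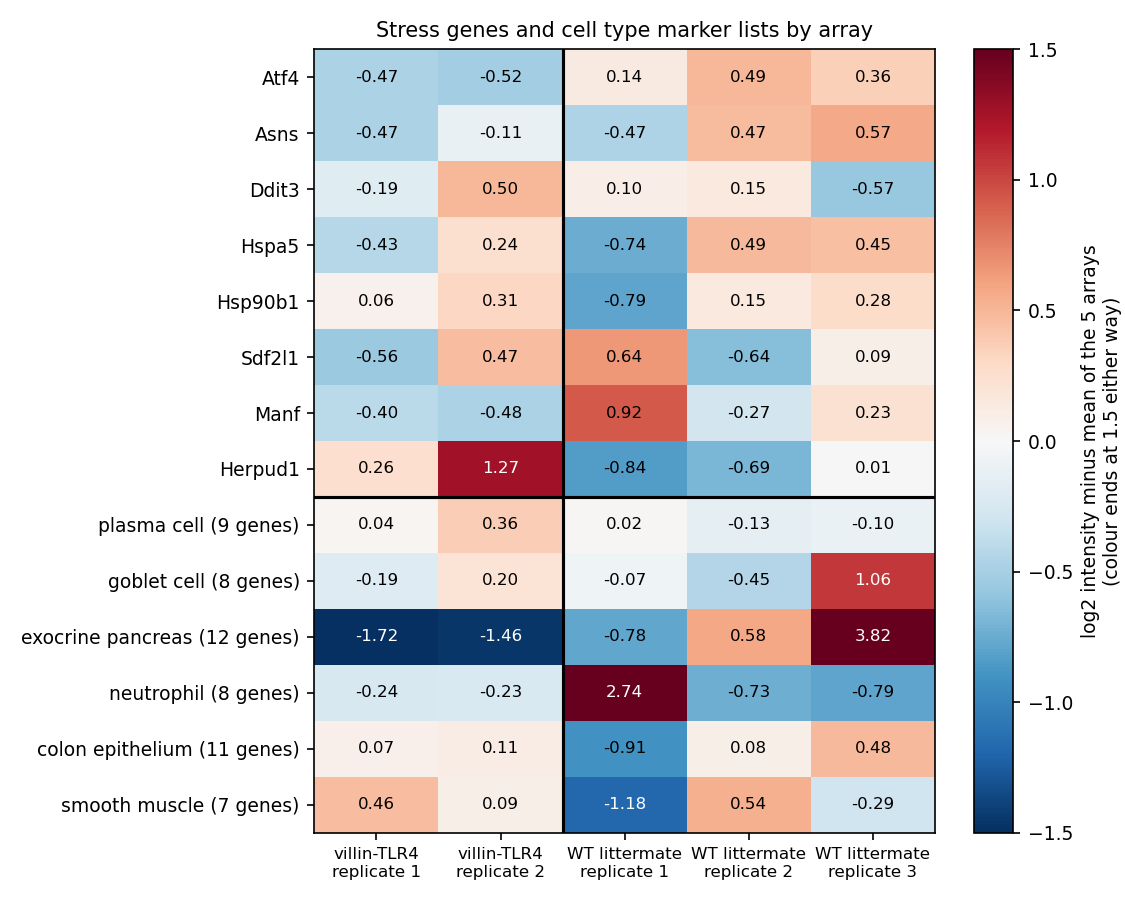
Log2 intensity minus the mean of the 5 arrays for each stress gene (above the line) and the median of the same for marker lists of 6 cell types (below it), with 1 column per array and villin-TLR4 left of WT littermate. Neutrophil markers stand at 2.74 on WT littermate replicate 1 and exocrine pancreas markers at 3.82 on WT littermate replicate 3.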

How the data were processed

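Labelled RNA of 5 mouse colon samples was hybridised to single-colour arrays of long oligonucleotides. Per the file headers, the deposited foreground and background intensities at 635 nm came from GenePix Pro 4.1.1.4 and were not normalised, and the deposited flag score is 0 for a spot that was found, -50 for one not found, -75 for one absent and -100 for a bad one. A separate deposited table holds a linear ratio per probe. For 4 arrays its log2 differences from another array followed those of background-subtracted intensity (r at least 0.999998). For WT littermate replicate 1 the r was 0.943. An r does not measure slope, so whether the log2 scale was also stretched or compressed was not tested. The scale and centring of that table are not given in the sources used here. Column medians ran from 0.98 to 1.176, and it served as an alternative.

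With limma 3.58.1 (R 4.3.3), normexp background correction with an offset of 50 was applied to the foreground median, bad spots were set to missing, and 35078 gene probes were quantile normalised on the log2 scale. Accessions matched a RefSeq gene table (GRCm38.p6) for 23017 probes. Probes found on at least 2 arrays were kept and the brightest stood for a gene, which left 15078 genes or unnamed probes. Genotypes were compared by lmFit and eBayes in two-sided tests, adjusted by Benjamini-Hochberg over all of them, at a threshold of 0.05. The code was checked on simulated data. The villin-TLR4 samples differ in labelled sex and so come from different mice. For the WT littermate samples the labels name no separate mice, so their spread may be technical, and p-values reflect only the spread among these 5 samples. Scan days come from the file headers, as days of scanning only.

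The members and pathway lists were chosen with earlier results of these data known. From each list up to 4 genes per direction with no overlap between the groups and the smallest p could be named, plus a fixed set of sensors and effectors; genes chosen after their values were seen are identified as such. Alternatives covered background correction, normalisation, filter, probe choice, variance model, array weights, a replicate block, scan day, sex, the deposited ratios and each array left out. Medians of the pathway lists without WT littermate replicate 1 or 3 were added after seeing the data. DSS concentration is the same within a genotype and could not enter a fit.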

Additional observations from a re-analysis of the deposited data

How the results depend on the processing

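No member was called in any of the 19 alternatives. Atf4, Asns, Manf and Herpud1 kept their direction in all 19, with differences of -1.01 to -0.60, -0.82 to -0.29, -1.03 to -0.21 and 0.76 to 1.95. The 19 are not separate checks. Sex as a covariate in effect drops villin-TLR4 replicate 2, the only male (Herpud1 0.764, against 0.759 without that array). The replicate block in effect drops WT littermate replicate 3 (Herpud1 1.525, against 1.546). Scan day as a block rests on the scan day 3 pair. For Atf4, Manf and Herpud1, whose groups do not overlap, dropping arrays says little about the sign. The smallest adjusted p of Atf4, 0.0854, came with array weights, which gave WT littermate replicate 1 a weight of 0.147 and WT littermate replicate 3 a weight of 4.105; elsewhere it was 0.298 to 1. Signs turned for Ddit3 (-0.080 with sex as a covariate; -0.078 to 0.61 with 1 array left out, the lowest without villin-TLR4 replicate 2), for Hsp90b1 (-0.041 with array weights; -0.025 to 0.51 with 1 array left out, the lowest without WT littermate replicate 1), for Hspa5 (0.031 with the replicate block; -0.53 to 0.17 with 1 array left out, above 0 except without villin-TLR4 replicate 2 and WT littermate replicate 1) and for Sdf2l1 (1.11 with scan day as a block; -0.59 to 0.44 with 1 array left out, above 0 without villin-TLR4 replicate 1 and without WT littermate replicate 1); the cause was not tested. The median of the ER chaperones ranged from -0.49 to 0.44 with 1 array left out, and that of the 2 Atf4 targets from -0.37 to 0.15. Over all genes, 21 passed with array weights, 20 with the replicate block and 3 with scan day as a block, and 0 in the other fits. Across genes, deviations from the group mean had r of -0.152 and -0.213 between samples that share a replicate number. With 2 villin-TLR4 arrays these deviations mirror each other, and samples of different number gave 0.213 and 0.152. Such values cannot show whether samples are paired, and the replicate block pairs them by number only. The 730 genes at an unadjusted p under 0.05 became 1640 without WT littermate replicate 1, and 295 and 245 without villin-TLR4 replicates 1 and 2. The median of the Atf4 and amino acid response list was -0.09 without WT littermate replicate 1. The deposited ratios gave -0.94 for Atf4 and 1.26 for Herpud1.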
